A study of Mus musculus with 16 samples.

Results

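RNA levels in oligodendrocytes of female (XX) mouse pups were compared between 4 libraries from pups of mothers given bisphenol A (BPA) and 4 libraries from control pups, over all autosomal genes. These 8 of the study's 16 libraries were taken from the labels female control 1 to 4 and female BPA 1 to 4, and the other 8 come from male pups. All pups were OF-1 mice, an outbred strain, and brains were taken at postnatal day 16. Exposed mothers drank water with BPA from gestational day 7 through lactation, at a labelled estimate of 40 µg/kg/day. Their water held 250 µg/mL per the study's design, and the scale of the dose was not settled from these sources. Controls are labelled only as control. Cells were sorted on magnetic beads for the O4 antigen, which is carried by late oligodendrocyte precursors and oligodendrocytes, and poly(A) RNA was sequenced from each sample. Of 30484 autosomal genes in the table, 15740 had enough counts to be tested, and 12944 of these averaged at least 1 CPM (counts per 1000000 counted reads) over the 8 libraries.

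Oligodendrocytes make the myelin sheaths of the central nervous system. They arise from dividing precursors that carry the growth factor receptor Pdgfra, leave the cell cycle and switch on myelin genes such as Mbp and Mog. Myelin is rich in cholesterol, which these cells make for themselves through the mevalonate pathway. BPA is a component of plastics that binds estrogen receptors weakly.

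Total counts ran from 23603816 in female BPA 4 to 42575326 in female control 4, and 3 counts were worth between 0.0705 and 0.127 CPM in these 8 libraries. The 4 control totals lay between 37414123 and 42575326 and the 4 BPA totals between 23603816 and 40819441, so that 3 of the BPA totals were below every control (exact permutation test, two-sided p = 0.0857, where 0.0286 is the smallest p that 4 against 4 allows). The sex label held: Xist was between 714 and 993 CPM in the 8 female libraries and at most 0.349 CPM in the male ones. Mbp, a main protein of compact myelin, was measured at 15530 to 19610 CPM and Mog at 2784 to 3448 CPM. No litter or batch is labelled. Each p-value of the main gene fit rests on a spread estimated from all 16 libraries, male ones included. It may be too small because littermates share an exposure. In bulk RNA, fewer cells of a type cannot be told apart from less RNA per cell.

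No autosomal gene passed an adjusted p of 0.05 in limma-voom (0.0% of 15740), and limma-trend on the same counts also called 0. At an unadjusted p under 0.05 there were 713 genes, or 4.53%, of which 327 were higher with BPA (2.08%) and 386 lower (2.45%). With limma-trend there were 705. The balance of the 2 directions depended on how libraries were scaled: 45.9% of the 713 were higher with trimmed-mean scaling, 53.3% of 675 with median-of-ratios scaling and 62.9% of 680 with library totals alone. The 4 BPA libraries were all above the 4 controls for 191 genes (1.21%) and all below them for 330 genes (2.1%).

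Differences between the groups were small for most genes and spread widest at low levels. Over the 12944 genes of at least 1 CPM the log2 fold change of BPA over control had a median of 0.00 and an SD of 0.20, and 90% of the values lay between -0.21 and 0.28. A difference of 1.2-fold or more was seen for 9.03% of them, 1.5-fold or more for 1.29% (167 genes) and 2-fold or more for 0.402% (52 genes, of which 25 have only a provisional or clone name). Genes under 1 CPM spread far wider, with an SD of 0.48, against 0.29 for genes of 1 to 10 CPM, 0.13 for 10 to 100 CPM and 0.17 for 100 CPM or more. The median 95% confidence interval reached 0.82 to either side under 1 CPM, 0.44 at 1 to 10 CPM and 0.17 at both higher levels, on the log2 scale.

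These intervals bound the difference between the 2 female groups, with a spread estimated from all 16 libraries. For 9911 of the 12944 genes of at least 1 CPM (76.6%) the whole interval lay within 1.5-fold of no difference, and for 12120 (93.6%) within 2-fold. Among the 1825 genes of 100 CPM or more, 94.7% were bounded within 1.5-fold. Under 1 CPM only 2.22% were. A slight tilt was visible with level: 59.0% of genes of 1 to 10 CPM had a positive fold change, against 48.1% at 10 to 100 CPM and 32% at 100 CPM or more, where the median was -0.04.

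**Figure D1:**
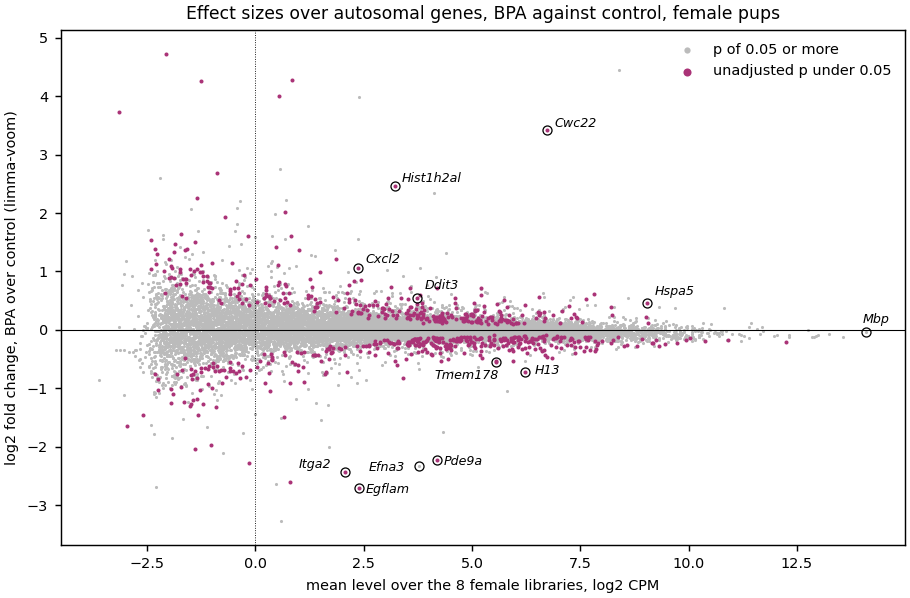
Each point is 1 of the 15740 autosomal genes tested, placed by its mean level over the 8 female libraries (x axis, log2 CPM, dotted line at 1 CPM) and its log2 fold change of BPA over control (y axis). The 713 genes with an unadjusted p under 0.05 are in purple, 12 named genes are ringed, and the cloud widens to the left, where counts are few.

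The gene with the smallest p was Pde9a on chromosome 17, which encodes a phosphodiesterase that breaks down cyclic GMP. It was measured at 17.7, 33.5, 33.2 and 30.2 CPM in the controls and at 4.34, 6.02, 3.87 and 17.2 CPM in the BPA libraries. The groups did not overlap, but control 1 and BPA 4 were nearly level. The log2 fold change was -2.23 ± 0.40 (SE, 4 libraries a group, limma-voom adjusted p = 0.648). Of 24 genes of cyclic GMP and cyclic nucleotide signalling tested, Pde9a among them, 12 were higher and 12 lower, with a median of -0.01 and a highest value of 0.36. The other member with an unadjusted p under 0.05 was Gucy1b1, the beta subunit of soluble guanylate cyclase. It was at 46.7 CPM in controls and 38.5 CPM with BPA (log2 fold change -0.27). Over all autosomal genes tested, 2.45% were lower at that p.

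Tmem178, Tbcc and Utp14b were also among the 12 genes of smallest p on the lower side. Tmem178, which encodes a membrane protein of the endoplasmic reticulum, was measured at 48.7, 66.1, 50.8 and 58.0 CPM in controls and 41.3, 39.4, 38.9 and 30.9 CPM with BPA, a log2 fold change of -0.56 ± 0.12 (SE). Tbcc, a cofactor in the folding of tubulin, stood at 12.3 to 14.7 CPM in controls and 9.03 to 11.1 CPM with BPA (-0.42 ± 0.09). Utp14b, related to a factor that processes the small ribosomal subunit, was at 64.0 to 83.5 CPM in controls and 43.1 to 60.4 CPM with BPA (-0.53 ± 0.11). Its exons overlap those of Acsl3 on the same strand in the GENCODE annotation and 2.07% of its 50-base words also occur in Acsl3 transcripts, so the counts of this pair may not be separate. Acsl3 itself gave -0.14.

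Mgat5, which adds a branch to N-linked sugars, was measured at 113.0, 109.9, 109.9 and 110.2 CPM in controls and 97.3, 80.6, 88.2 and 79.2 CPM with BPA (log2 fold change -0.36 ± 0.09). The female controls were within a few CPM of each other, and each female BPA library was lower. Male controls spread wider, at 87.5, 113.8, 123.5 and 99.8 CPM, and the male log2 fold change was -0.03 ± 0.09. The other genes among the 12 smallest p on the lower side were Ccdc71l, Lekr1, Ddt, Nupl2, Olfr279, Mrm2 and Nynrin, with log2 fold changes from -0.27 (Ccdc71l) to -0.72 (Lekr1). Ddt is a tautomerase related to the cytokine Mif, Nupl2 a nuclear pore protein and Mrm2 a mitochondrial RNA methyltransferase.

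On the higher side, the genes with the smallest p were Ddit3 and Dnajb4. Ddit3, which encodes the stress transcription factor CHOP, stood at 9.33, 11.9, 12.7 and 10.0 CPM in controls and 18.2, 13.5, 16.5 and 14.9 CPM with BPA, a log2 fold change of 0.54 ± 0.11 (SE). Dnajb4, a co-chaperone of heat shock protein 70, stood at 30.5, 28.9, 28.1 and 28.6 CPM in controls and 37.4, 32.7, 34.5 and 36.05 CPM with BPA (0.27 ± 0.06). For both genes the lowest BPA library was BPA 2, and it still lay above the highest control. Both had an adjusted p of 0.648 in limma-voom.

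The log2 fold changes of the others among these 12 ran from 0.19 to 0.48. Supt20, a subunit of the SAGA coactivator complex, was at 46.3 to 50.3 CPM in controls and 54.7 to 56.4 CPM with BPA, which is a log2 fold change of only 0.19 ± 0.05. Dzip3, a ubiquitin ligase, was at 39.9 to 42.4 CPM against 45.2 to 49.8 CPM (0.22 ± 0.06). Prcp, a lysosomal carboxypeptidase, was at 10.7 to 13.2 CPM against 13.8 to 17.6 CPM (0.45 ± 0.11). Col20a1, a collagen, was the 1 gene among the 12 of smallest p on either side whose groups overlapped, since control 3 at 49.9 CPM was above BPA 3 at 49.3 CPM. Hspa5, an endoplasmic reticulum chaperone described with the stress genes, and Serpind1, Naa16, Ccdc117, Stx1a and Swt1 completed the 12, with log2 fold changes between 0.23 and 0.48.

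**Figure D2:**
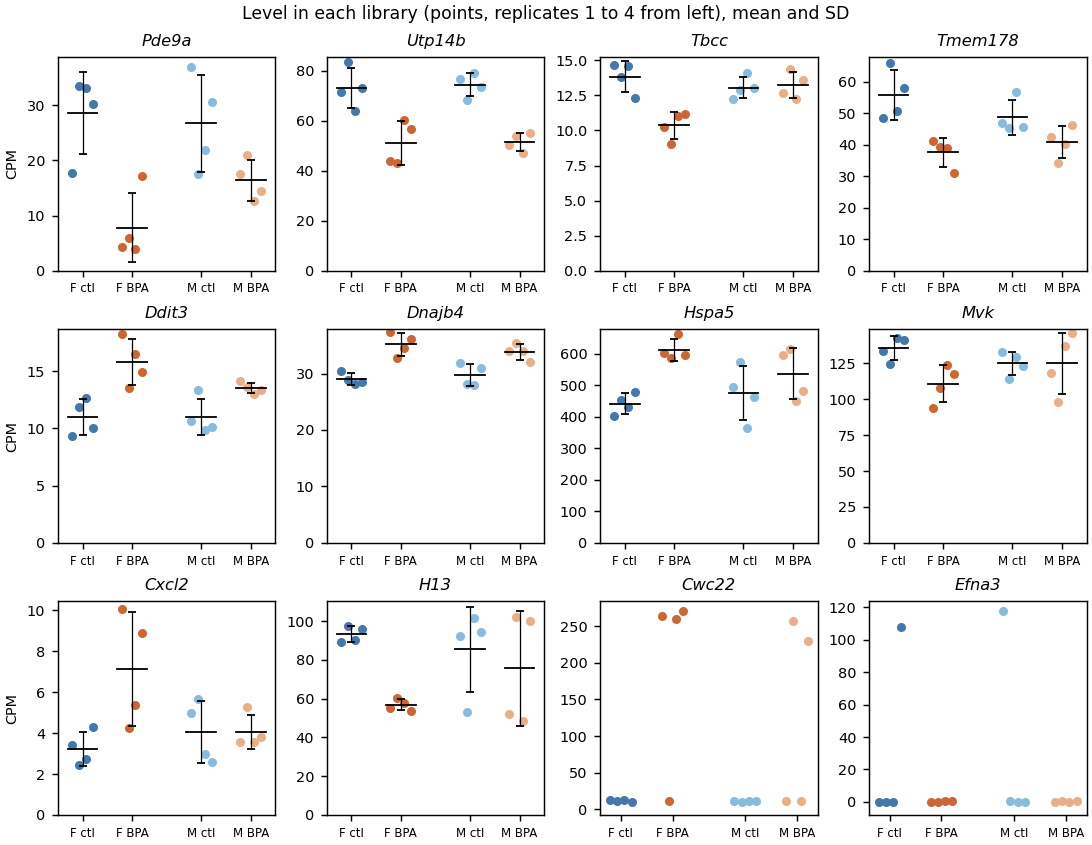
Level in CPM (y axis) of 12 genes in each library (points) of the female (F) and male (M) control and BPA groups, with mean and SD as lines for all genes but Cwc22 and Efna3. Pde9a, Tbcc, Tmem178, Ddit3, Dnajb4 and Hspa5 do not overlap between the female groups; H13 and Cwc22 take a low or a high level in each library, and Efna3 is high in 2 control libraries alone.

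The largest fold changes were of another kind. The 6 largest in each direction among genes of at least 1 CPM with a full gene symbol had log2 sizes from 1.55 to 3.42, but their median standard error was 1.36, against 0.09 for the 24 genes of smallest p. Groups did not overlap for 1 of these 12 genes, Pde9a. Pde9a also showed a gap over the 16 libraries: female BPA 1, BPA 2 and BPA 3 were at most 6.02 CPM and the other 13 at least 12.57 CPM. In several of the other genes, such as Cwc22, Egflam and Efna3, libraries fell at a low or a far higher level. Cwc22, a splicing factor on chromosome 2, was at 9.62 to 12.4 CPM in all controls, at 10.7 CPM in BPA 2 and at 264, 260 and 271 CPM in the other BPA libraries. Its log2 fold change of 3.42 ± 1.39 (SE) therefore describes no single library. Of its 50-base words, 18.5% also occur in other annotated genes.

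Efna3, an ephrin ligand, was at 107.8 CPM in control 4 and at 0.0578 to 0.424 CPM in the other 7 female libraries, and it was at 117.8 CPM in male control 1. Its log2 fold change was -2.33 ± 2.82 with all libraries and 0.04 without control 4. Egflam, a protein of the extracellular matrix, was at 11.6, 12.5 and 12.5 CPM in 3 controls, 1.06 CPM in control 1 and 0.790 to 1.21 CPM in the BPA libraries (-2.70 ± 1.19). Itga2, an integrin subunit, was at 3.31 to 8.94 CPM in controls, at 8.79 CPM in BPA 3 and at 0.334 to 0.491 CPM in the other BPA libraries (-2.43 ± 1.07). Hist1h2al, a histone H2A gene, was at 0.0236 CPM in control 4 and 6.601 to 14.3 CPM in the other 7 libraries. Without control 4 its value fell from 2.46 to 0.37. Hist1h2al, Tuba1c, Got2-ps1 and Tmem181c-ps share 67.6%, 52.7%, 64.4% and 72.3% of their 50-base words with other genes, so their counts are uncertain. Fam71b, Opn4 and Ccr6 had libraries at or near 0 in both groups.

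H13 on chromosome 2, which encodes signal peptide peptidase, showed how such levels can line up with the groups. It was chosen here after its values were seen. It was at 89.5, 97.7, 90.4 and 96.0 CPM in the controls and 55.3, 60.5, 57.6 and 53.9 CPM in the BPA libraries. Fitted on the 8 female libraries alone, it was the 1 gene called (log2 fold change -0.70, limma-voom adjusted p = 0.00616). With all 16 libraries in the fit the value was -0.72 ± 0.24 with an adjusted p of 0.999. The male libraries, which share that estimate of spread, hold both levels within each group: 92.4, 53.2, 101.8 and 94.2 CPM in male controls and 51.9, 101.9, 48.3 and 100.3 CPM in male BPA. No library of the 16 lay between 60.5 and 89.5 CPM. Rbm22, a splicing factor also chosen after its values were seen, was at 71.7 to 77.7 CPM in female controls, 79.2 CPM in BPA 3 and 120.5 to 124.2 CPM in the other BPA libraries. No library of the 16 lay between 80.5 and 115.8 CPM for that gene.

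Leaving out 1 library at a time showed how far effect sizes rest on single animals. Over genes of at least 1 CPM, the fold changes from 7 libraries correlated with those from 8 at Pearson's r of 0.874 (without control 3) to 0.943 (without BPA 4), as a description across genes that share 7 libraries. The sign changed for 10.5% to 16.3% of these genes. For 54.1% of the 12944 genes the sign was the same in all 8 fits. For 73.9% the size fell to under 50% of its value, or the sign turned, without at least 1 library. Control 3 was the library whose removal moved a gene most for 21.4% of genes, and BPA 2 followed with 16.3%, BPA 3 with 15.2% and BPA 1 with 13.0%.

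Of the 713 genes with an unadjusted p under 0.05, 151 (21.2%) kept it without any 1 of the 8 libraries. The number kept ran from 370 without BPA 1 to 476 without BPA 4. All 24 genes of smallest p named above, which were chosen by that p, kept it in all 8 fits, and among the 12 largest fold changes only Pde9a did. Leaving out 1 library gave between 517 genes (without BPA 1) and 829 genes (without BPA 3) at an unadjusted p under 0.05, and no fit called a gene. Without both BPA 1 and BPA 2 the correlation with the full fit was 0.701, 27.5% of signs changed and 242 of the 713 genes kept an unadjusted p under 0.05.

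**Figure D3:**
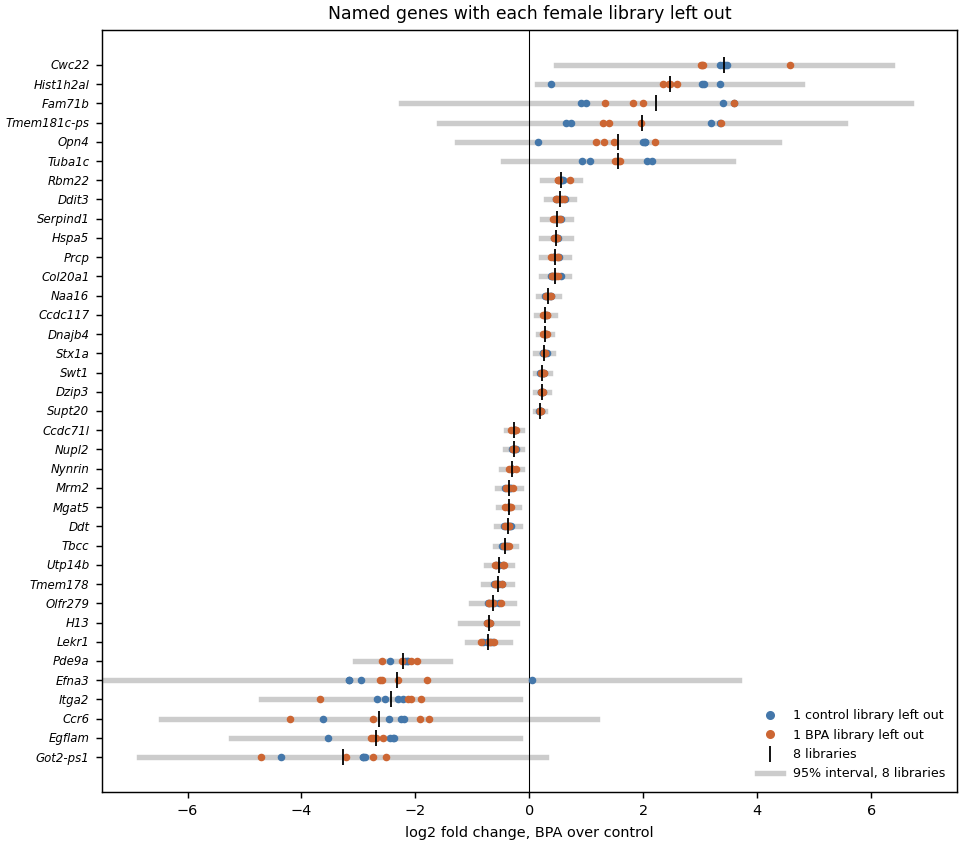
Log2 fold change of BPA over control (x axis) for the named genes with 8 libraries (black tick, 95% interval in grey) and with 1 control (blue) or 1 BPA library (orange) left out. Values for Ddit3, Dnajb4, Hspa5, Tbcc and the other genes of small p stay in a narrow band, while Hist1h2al, Opn4 and Efna3 come closest to 0 without control 4.

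Markers of other cell types were present in every library and did not separate the groups. Summed over 19 microglial markers the level was 2602, 2305, 1094 and 1408 CPM in controls and 3204, 1384, 1422 and 1629 CPM with BPA. BPA 1 stood highest, and the controls spanned more than a 2-fold range. The 20 astrocyte markers summed to 2781 to 5147 CPM in controls and 3669 to 5019 CPM with BPA. Neuron markers ran from 203 to 246 CPM against 227 to 309 CPM, endothelial markers from 242 to 396 CPM against 267 to 338 CPM and markers of mural cells and fibroblasts from 34.6 to 84.1 CPM against 38.8 to 97.3 CPM. Ependymal and choroid plexus markers ran from 168 to 705 CPM against 242 to 657 CPM. Gene by gene, 11 of these 14 were higher, with a median log2 fold change of 0.21, and without control 3 it was 5 of 14 with a median of -0.054. Blood cell markers ran from 1605 to 3329 CPM in controls and 2011 to 4738 CPM with BPA, with 1 of 14 markers at 0 in all 8 libraries. No other list had a marker at 0 throughout. Over the 7 lists, exact two-sided permutation tests of 4 against 4 gave p of 0.229 to 0.971, and 0.971 for each after Benjamini-Hochberg adjustment.

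**Figure D4:**
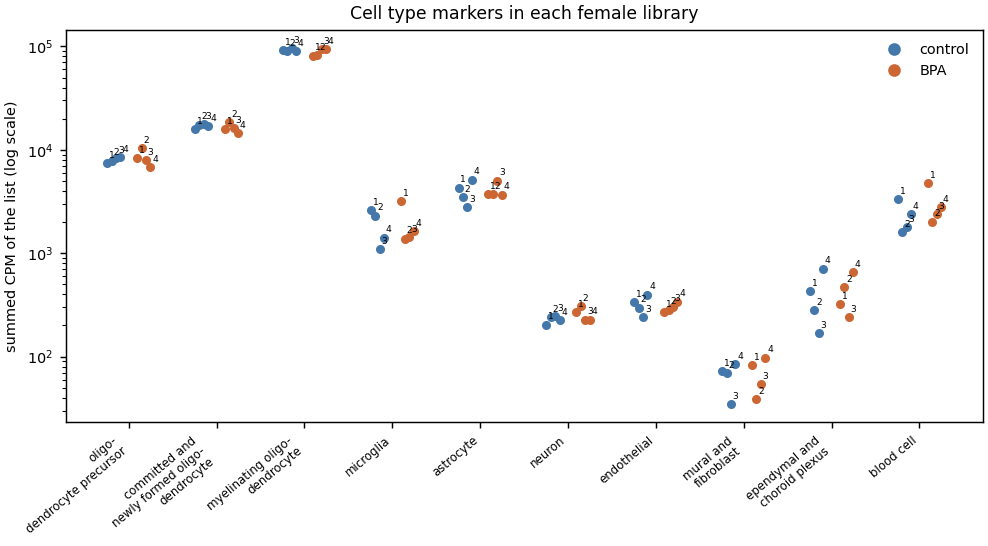
Summed CPM of each marker list (y axis, log scale) in the 4 control (blue) and 4 BPA libraries (orange), numbered by replicate. Control 3 is lowest for microglia, astrocytes, endothelium, mural cells and ependyma, BPA 1 is highest for microglia and blood cells, and BPA 2 is highest for precursors.

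A marker level was also put into the fit as a covariate. With microglial, astrocyte, mural and fibroblast, or precursor markers, fold changes over genes of at least 1 CPM correlated with the uncorrected ones at r of 0.986, 0.987, 0.981 and 0.982, and the sign changed for 1.68%, 4.01%, 2.41% and 6.05% of genes. The genes at an unadjusted p under 0.05 numbered 746, 889, 802 and 759, and none was called. For Pde9a the log2 fold change stayed between -2.14 and -2.24, for Ddit3 between 0.54 and 0.55, for Dnajb4 between 0.27 and 0.29, for Tmem178 between -0.55 and -0.60 and for Hspa5 between 0.46 and 0.48. For these 5 genes the shifts are smaller than the range from leaving out 1 library. Among the 151 genes named by rule or chosen later, 22 moved by more than 0.1 with at least 1 of the 4 covariates, and 1 of them by more than its standard error. This was Tmem181c-ps, at 1.98 and at 0.16 with microglial markers. Genes with large standard errors moved most after it: Fam71b went from 2.22 to 1.13 and Efna3 from -2.33 to -3.03, both with mural and fibroblast markers.

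Genes of the oligodendrocyte lineage differed by stage, and the precursor part of this pattern rested largely on BPA 2. Of 19 precursor genes, 17 were higher with BPA, with a median log2 fold change of 0.20, beside a median of 0.00 over all autosomal genes tested. Pdgfra was at 86.6, 124.9, 129.0 and 124.1 CPM in controls and 154, 233, 117 and 102 CPM with BPA, so the groups overlapped and BPA 2 alone stood above 200 CPM (0.33 ± 0.23). Pcdh15, a protocadherin of precursors, was the 1 member higher at an unadjusted p under 0.05 (0.28 ± 0.11), beside 2.08% of all genes on that side. Without BPA 2 alone, 11 of the 19 were higher and 8 lower, with a median of 0.0465 and no member higher at that p. Without BPA 1 alone, 17 were higher with a median of 0.15, and without BPA 4 the median was 0.32 with 6 members higher at that p. In the fit without BPA 4, 367 of the 15740 autosomal genes were higher at that p. Without both BPA 1 and BPA 2, 2 of the 19 were higher and 17 lower, with a median of -0.09. Olig1 and Olig2, transcription factors of the whole lineage, went the other way and were lower in each BPA library than in any control, as were 2.1% of all genes tested: Olig1 was at 1945 to 2079 CPM against 1695 to 1871 CPM (-0.17 ± 0.08), and Olig2 at 541 to 580 CPM against 427 to 536 CPM (-0.18 ± 0.10).

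Of 27 myelinating genes, 22 were lower, with a median of -0.07, and 1 had an unadjusted p under 0.05, beside 2.45% of all genes on that side. Over all genes of 100 CPM or more, 32% were higher, with a median of -0.04. With library totals as the scaling, 19 of the 27 were lower, at a median of -0.041. The median of the 27 was -0.12 without BPA 4, -0.026 without BPA 1 and -0.025 without BPA 2. The 1 gene at that p was Gal3st1, the sulfotransferase that makes sulfatide. It was at 491 to 539 CPM in controls and 415 to 496 CPM with BPA (-0.16 ± 0.07). Cnp, an enzyme of myelin membranes, gave -0.13 ± 0.09. Mbp gave -0.03 with an interval of -0.28 to 0.22, and Mog 0.02 with an interval of -0.21 to 0.26. Without both BPA 1 and BPA 2, 20 of the 27 were higher. Of 18 genes of committed and newly formed oligodendrocytes, 6 were higher and 12 lower (median -0.05). Their median was -0.13 without BPA 2 and 0.01 without BPA 4. The summed precursor level was 10410 CPM in BPA 2, above the 6752 to 8451 CPM of the other 7 libraries. The summed myelinating level was 81400 CPM in BPA 1 and 81730 CPM in BPA 2 against 89730 to 96440 CPM in the other 6.

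Most genes of cholesterol synthesis had lower levels with BPA, though none passed the adjusted test. Members of this and the other lists were chosen with earlier results of these data known. The share over all genes is therefore no test of a list. Of 20 cholesterol synthesis genes tested, 19 were lower, with a median log2 fold change of -0.14. With library totals as the scaling, 18 were lower, at a median of -0.109. Over all genes of 100 CPM or more, 32% were higher, with a median of -0.04. Of the 20, 5 had an unadjusted p under 0.05, all lower, beside 2.45% of all autosomal genes on that side. The count of 5 rested on single libraries: it was 0 without BPA 1, 1 without BPA 2 or control 3, 2 without control 2, 3 without control 1 and 8 without BPA 3. Among these 5 were Mvk (mevalonate kinase), Mvd (mevalonate decarboxylase), Lss (lanosterol synthase) and Tm7sf2 (a sterol reductase). Mvk was at 133.2, 124.7, 142.7 and 141.4 CPM in controls and 93.9, 108.0, 123.7 and 117.5 CPM with BPA (-0.30 ± 0.11). Mvd was at 187.7, 187.9, 187.2 and 178.1 CPM in controls and 155.4, 147.8, 177.8 and 173.3 CPM with BPA (-0.18 ± 0.08). Both had all BPA libraries below all controls. Over all autosomal genes tested this held for 2.1%, and for 67 of the 1825 genes of 100 CPM or more. In both Mvk and Mvd the lowest levels were in BPA 1 and BPA 2. Hmgcs1, the synthase at the head of the pathway, was at 2722, 2658, 2552 and 2148 CPM against 2015, 2025, 2432 and 2328 CPM, so control 4 lay within the BPA range (-0.20 ± 0.11).

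The list's median stayed between -0.20 and -0.09 without any 1 library, and between -0.14 and -0.13 with each marker covariate. Without both BPA 1 and BPA 2 it was 0.00, with 11 of 20 higher. These are also the libraries with the lowest myelinating level, and the part of that level in the result was not tested. Genes of fatty acid and sphingolipid synthesis had 19 of 22 lower, at a median of -0.06. With library totals as the scaling it was 12 of 22, at a median of -0.031, and without BPA 1 it was 15 of 22, at -0.0295. Over all genes of 100 CPM or more, 32% were higher. Genes of cholesterol uptake, export and control had 11 of 19 lower (-0.03).

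The promoters of 3 pathway members are shown because their genes had lower levels with BPA. RefSeq windows (GRCm38.p6) of 250 bases before the start were found for 15 of the 20 genes. The box CCAAT, on either strand, was in 14 of these 15 windows, against 37.5% of 27025 genes with a window. The sterol element letters TCACNCCAC were in 1 of 15, against 1.22% of all. In the sequences, written 5′ to 3′ along the gene's strand and ending at the base before the start, capitals mark CCAAT or its complement ATTGG and, in Hmgcs1, the sterol element. Mvk (chr5:114444069-114444268, plus strand) holds 5 boxes in 200 bases, Mvd (chr8:122443423-122443622, minus strand) 2, and Hmgcs1 (chr13:119690101-119690350, plus strand) 3 in 250 bases.
Mvk: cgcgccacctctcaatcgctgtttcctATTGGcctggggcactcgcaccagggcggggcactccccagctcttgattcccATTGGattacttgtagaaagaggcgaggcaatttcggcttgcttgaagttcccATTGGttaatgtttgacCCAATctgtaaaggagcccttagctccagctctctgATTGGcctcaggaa
Mvd: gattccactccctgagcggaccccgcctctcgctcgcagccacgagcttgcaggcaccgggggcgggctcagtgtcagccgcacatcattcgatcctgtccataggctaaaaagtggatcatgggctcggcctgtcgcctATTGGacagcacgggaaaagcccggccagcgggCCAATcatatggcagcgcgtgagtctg
Hmgcs1: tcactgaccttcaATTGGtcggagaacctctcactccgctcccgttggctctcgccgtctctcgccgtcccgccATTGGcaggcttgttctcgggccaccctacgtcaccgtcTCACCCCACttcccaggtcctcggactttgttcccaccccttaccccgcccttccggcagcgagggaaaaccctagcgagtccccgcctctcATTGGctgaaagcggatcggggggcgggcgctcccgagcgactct
Matches are descriptions of these letters only, and binding was not measured here.

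Among stress genes of the endoplasmic reticulum, Hspa5, Herpud1 and Xbp1 had the smallest p. Of 25 chaperones and unfolded protein response genes of the endoplasmic reticulum, 15 were higher and 10 lower, with a median of 0.03, and 3 had an unadjusted p under 0.05, all higher, beside 2.08% of all genes on that side. The number higher ran from 13 without BPA 2 to 20 without BPA 4. Hspa5, the main chaperone of this compartment (BiP), was at 404, 453, 431 and 480 CPM in controls and 601, 587, 663 and 595 CPM with BPA (0.47 ± 0.12, limma-voom adjusted p = 0.999). All female BPA libraries were above all female controls, with a gap of more than 100 CPM. Male controls spread wider, at 494.5, 573.5, 365.7 and 464.2 CPM. Male BPA libraries were at 451.2 to 615.1 CPM, overlapping them (0.18 ± 0.12). Herpud1, of protein degradation from this compartment, was at 28.2 to 30.7 CPM against 32.8 to 43.6 CPM (0.34 ± 0.12). Xbp1, a transcription factor of the same response, was at 48.2 to 56.6 CPM against 58.1 to 68.7 CPM (0.26 ± 0.10). Values of other abundant chaperones were smaller: Hsp90b1 gave 0.08 ± 0.09, Calr 0.07 ± 0.09 and Canx -0.03 ± 0.06, each with overlapping groups.

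The promoters of Hspa5, Hsp90b1 and Calr are shown because they carry the same element. The endoplasmic reticulum stress element, searched as CCAAT and CCACG with 9 bases between, on either strand, was in 9 of 21 list members with a window and in 0.13% of all 27025 genes. Of the 9, 5 had higher and 4 lower levels with BPA, at a median of 0.07, against 0.02 for the 12 without it. Capitals mark both parts of the element or of its complement. The windows are Hspa5 (chr2:34771890-34772089, plus strand), Hsp90b1 (chr10:86705445-86705644, minus strand) and Calr (chr8:84846932-84847131, minus strand), 200 bases each.
Hspa5: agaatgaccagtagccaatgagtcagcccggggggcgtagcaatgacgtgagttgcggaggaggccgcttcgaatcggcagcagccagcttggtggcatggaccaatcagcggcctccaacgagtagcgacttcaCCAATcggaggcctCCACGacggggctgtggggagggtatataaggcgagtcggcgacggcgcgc
Hsp90b1: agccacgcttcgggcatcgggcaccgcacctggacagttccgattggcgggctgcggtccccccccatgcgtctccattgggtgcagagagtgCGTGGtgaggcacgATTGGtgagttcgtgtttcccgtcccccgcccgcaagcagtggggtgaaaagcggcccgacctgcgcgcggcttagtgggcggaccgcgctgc
Calr: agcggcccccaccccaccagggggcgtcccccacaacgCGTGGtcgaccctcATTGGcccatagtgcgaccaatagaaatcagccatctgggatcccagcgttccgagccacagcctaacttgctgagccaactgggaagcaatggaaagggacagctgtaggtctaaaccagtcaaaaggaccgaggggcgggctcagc
Each holds 1 match to these exact letters, and near matches were not counted. The log2 fold changes were 0.47, 0.08 and 0.07. A part of the element in them was not tested, and binding was not measured here.

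Among 25 genes of the integrated stress response, 17 were higher and 8 lower (median 0.04). Without control 4, 13 were higher and 12 lower, at a median of 0.009. Beside Ddit3, Sesn2, a stress-induced inhibitor of growth signalling, was at 9.38 to 10.9 CPM in controls. It was at 15.2, 16.1, 11.4 and 11.1 CPM with BPA (0.39 ± 0.11). Without both BPA 1 and BPA 2 its log2 fold change was 0.16. Ddit4, another inhibitor of growth signalling, lay on the other side: it was at 238 to 276 CPM in controls and 175 to 230 CPM with BPA (-0.36 ± 0.13). Ppp1r15a was at 35.1 to 49.1 CPM against 40.1 to 69.8 CPM, with overlapping groups (0.30 ± 0.18).

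Of 23 cytosolic heat shock genes, 20 were higher, with a median of 0.09 that stayed between 0.09 and 0.12 without any 1 library and was 0.12 without both BPA 1 and BPA 2. With Dnajb4, 2 more members had an unadjusted p under 0.05 and groups that did not overlap. Over all autosomal genes tested, 2.08% were higher at that p and 1.21% had all BPA libraries above all controls. Dnajb1, a co-chaperone of heat shock protein 70, was at 59.7, 63.7, 69.2 and 59.6 CPM in controls and 101.7, 73.0, 79.6 and 87.7 CPM with BPA (0.43 ± 0.13). Hsph1, a nucleotide exchange factor of the same machine, was at 110.4, 124.7, 147.1 and 141.0 CPM in controls and 198.7, 168.0, 165.9 and 159.0 CPM with BPA (0.41 ± 0.14). The inducible genes Hspa1a and Hspa1b were high in 2 BPA libraries only: Hspa1a was at 84.7 CPM in BPA 1 and 60.7 CPM in BPA 4, against 25.5 to 35.1 CPM in the other 6. They share 58.8% and 62.3% of their 50-base words with each other, so the split of counts between them is uncertain.

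BPA 1 and BPA 4 were also the highest BPA libraries for Klf4, Maff, Egr2 and Fos, immediate early genes, which cells switch on within minutes of a stimulus. Of 25 such genes tested, 22 were higher, with a median of 0.395, the second largest of the 27 lists. The lists were chosen with earlier results of these data known, so this rank is no test. Over all genes of 1 to 10 CPM, where Maff and Egr2 lie by their group means, 59.0% were higher. At 10 to 100 CPM it was 48.1%. Of the 25, 3 had an unadjusted p under 0.05, all higher, beside 2.08% of all genes on that side. That count was 1 without control 4, BPA 1 or BPA 4, 5 without BPA 3 and 6 without BPA 2. Klf4 was at 16.9 to 22.6 CPM in controls and 31.3, 24.1, 24.2 and 37.2 CPM with BPA (0.55 ± 0.24). Maff was at 1.09 to 2.12 CPM in controls and 4.25, 1.79, 2.07 and 4.70 CPM with BPA (0.87 ± 0.30), so BPA 2 and BPA 3 lay within the control range. Egr2 was at 2.62 to 5.06 CPM against 13.2, 5.80, 3.62 and 5.93 CPM (0.85 ± 0.37). Fos was at 168 to 208 CPM against 330, 207, 218 and 298 CPM (0.43 ± 0.30). The list's median was 0.19 without BPA 1, 0.26 without control 3 and 0.53 without BPA 2.

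Cytokine, chemokine and NF-kB feedback genes had the largest median, 0.43, with 21 of 23 higher. An unadjusted p under 0.05 was met by 6, all higher, beside 2.08% of all genes on that side. The lists were chosen with earlier results of these data known, so neither the rank nor that share is a test. Over all genes of 1 to 10 CPM, where Cxcl2 and Ccl7 lie by their group means, 59.0% were higher, with an SD of 0.29. Cxcl2, a chemokine for neutrophils, was at 3.42, 2.42, 2.74 and 4.29 CPM in controls and 10.1, 4.22, 5.39 and 8.90 CPM with BPA (1.05 ± 0.30). Ccl7 was at 2.22 to 4.90 CPM against 4.50 to 7.37 CPM (0.83 ± 0.29) and Ccl2 at 4.92 to 8.12 CPM against 6.63 to 15.4 CPM (0.74 ± 0.28). Ptgs2, which makes prostaglandins, was the 1 member whose groups did not overlap (0.43 ± 0.16). Over all autosomal genes tested, 1.21% had all BPA libraries above all controls. Microglia make many of these transcripts, and BPA 1 had the highest and control 3 the lowest microglial level of the 8 libraries. Without BPA 1 the median was 0.17, and without control 3 it was 0.21, each with 3 members at an unadjusted p under 0.05. Without BPA 3 it was 0.63 with 10 such members. With microglial markers as a covariate the median was 0.42 with 10 such members, and with each of the other 3 marker covariates there were 6. With BPA 1 and BPA 2 both left out the median was 0.235. Interferon response genes had 10 of 21 higher, with values from -0.81 to 0.44 and a median of -0.01. Without BPA 3, 18 of the 21 were higher with a median of 0.145, and without BPA 1, 8 were higher with a median of -0.11.

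**Figure D5:**
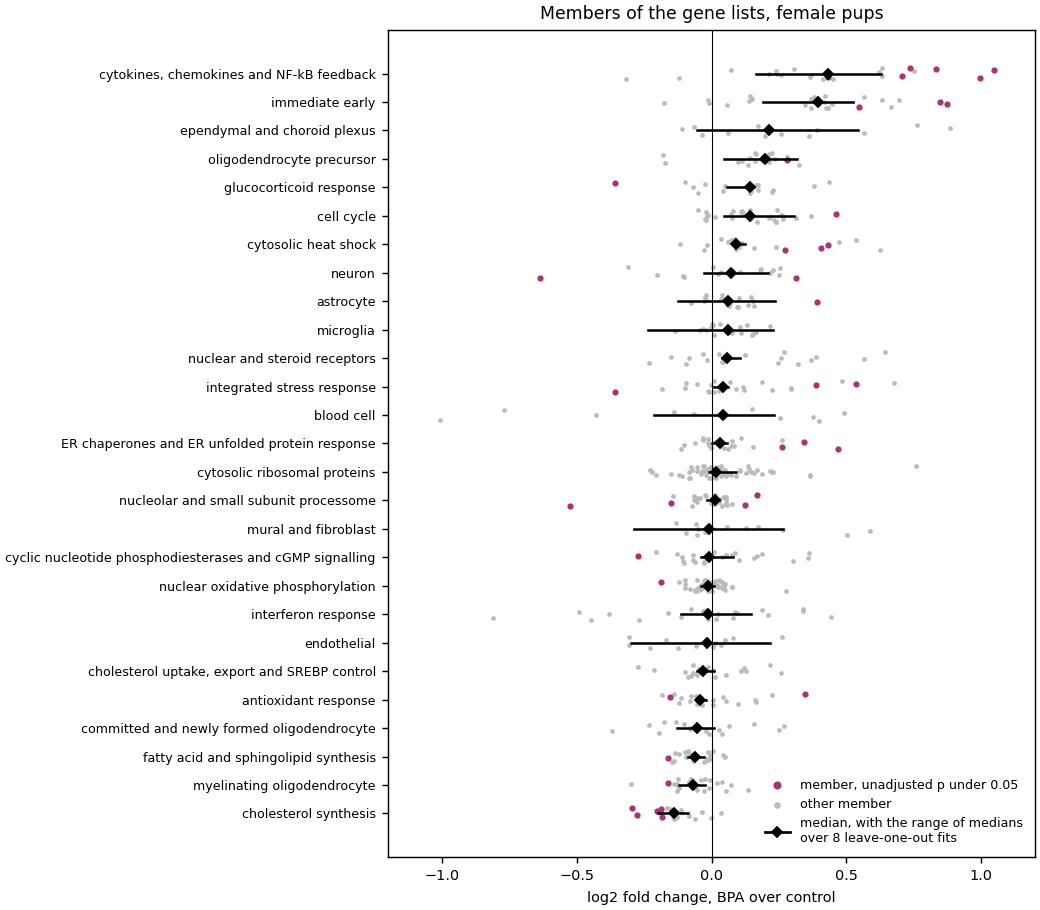
Log2 fold change of BPA over control (x axis) of each tested member of the 27 gene lists (points, purple where the unadjusted p is under 0.05), with the list's median (diamond) and the range of that median over the 8 fits that leave out 1 library (line). Pde9a at -2.23 lies outside the axis. Among the 7 lists of other cell types the ependymal and choroid plexus list has a median of 0.21. The other 6 lie between -0.02 and 0.07, and each of the 7 has a range that spans 0. The range of cytosolic heat shock lies above 0 and that of cholesterol synthesis below it. Several other ranges are also clear of 0, such as precursors (0.0465 to 0.317), immediate early (0.193 to 0.527) and cell cycle (0.0454 to 0.306). The lines do not cover the fit without both BPA 1 and BPA 2. There the medians were 0.00 for cholesterol synthesis, -0.09 for precursors and -0.16 for cell cycle.

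Levels of cell cycle genes varied with single libraries. Of 28 tested, 22 were higher (median 0.14). Birc5, a mitosis gene, was the 1 with an unadjusted p under 0.05 (0.46 ± 0.21), beside 2.08% of all genes on that side. Mki67 was at 9.47 to 13.1 CPM in controls and 18.9, 17.6, 9.26 and 11.7 CPM with BPA. The median was 0.045 without BPA 2, 0.065 without BPA 1 and 0.31 without BPA 3, where 27 of 28 were higher and 6 had an unadjusted p under 0.05. In the fit without BPA 3, 497 of the 15740 autosomal genes were higher at that p. With BPA 1 and BPA 2 both left out, 4 of the 28 were higher and the median was -0.16.

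Receptors through which BPA or hormones may act showed no called difference. Esr1, the estrogen receptor alpha gene, was at 0.106 to 0.330 CPM in controls and 0.122 to 0.300 CPM with BPA, a level at which the interval ran from -1.06 to 0.87. Thra, the main thyroid hormone receptor gene, was at 729 to 787 CPM in controls and 678 to 775 CPM with BPA (-0.08, interval -0.25 to 0.08). Of 20 nuclear and steroid receptors tested, 14 were higher and 6 lower (median 0.06) and none had an unadjusted p under 0.05 in limma-voom. Glucocorticoid response genes had 12 of 17 higher (0.14, and 0.056 without control 3). Of 22 antioxidant response genes 9 were higher (-0.04). Among these Keap1, the sensor of the response, was at 50.2 to 54.2 CPM in controls and 46.5 to 48.7 CPM with BPA (-0.15 ± 0.06), and Hmox1 was at 12.01 to 13.2 CPM against 21.1, 13.7, 12.8 and 20.4 CPM (0.35 ± 0.15), again highest in BPA 1 and BPA 4. Among housekeeping groups, cytosolic ribosomal proteins had 30 of 54 higher (0.02), nuclear oxidative phosphorylation 19 of 49 (-0.01) and nucleolar genes 16 of 29 (0.01).

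The test of the difference between female and male pups called no autosomal gene in limma-voom (735 at an unadjusted p under 0.05, 4.67%). The male and female comparisons share no library. Over genes of at least 1 CPM the fold changes of the 2 sexes had a Pearson's r of 0.304 and a Spearman's rho of 0.163 across genes, and 54.7% had the same sign. Of the 713 genes, 458 had the same sign in males. Utp14b was alike in both, at -0.53 in females and -0.53 ± 0.11 in males. Pde9a gave -0.69 ± 0.31 in males, a difference of -1.54 ± 0.50 (adjusted p = 0.999). Tbcc gave 0.03 ± 0.09 in males, a difference of -0.45 ± 0.12. Dzip3 was lower in BPA males (-0.20 ± 0.06), and its difference of 0.42 ± 0.08 had an unadjusted p of 0.000134 and an adjusted p of 0.999 in limma-voom. Precursor genes had a median of -0.28 in males, with 0 of 19 higher, and cholesterol synthesis genes 0.01, with 13 of 20 higher. The difference between the sexes was not tested for a list as a whole.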

How the data were processed

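The table the authors deposited holds raw gene counts for the 16 libraries, and its 32 other value columns were not used. Build mm39 and the tools HTSeq 0.6.1p1, DESeq2 1.16.1, STAR 2.5.3a and bcl2fastq 2.20.0.422 are named in the submitters' processing notes. Per the labels' protocols libraries were stranded; whether the counting used strand is not given in the sources used here. Chromosomes came from GENCODE M21 by gene ID.

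Here all 16 libraries were fitted together, with 1 coefficient a group, by limma-voom (limma 3.58.1, R 4.3.3) with trimmed-mean scaling, in place of the count test planned, because the unit check could not read the count columns. Genes needed about 10 counts in at least 4 libraries and 15 in all, which kept 16339 genes and 99.947% of counts. P-values were adjusted by Benjamini-Hochberg over these, and the threshold was 0.05. CPM are per 1000000 of the scaled library total. Named genes were, at a mean of at least 1 CPM, the 12 smallest p and 6 largest fold changes in each direction and up to 4 per list by p, and, at any level, Mbp, Mog, Pdgfra, Esr1 and Thra, with 11 chosen after their values were seen (H13, Rbm22, Hspa1a, Hspa1b, Lss, Hmgcs1, Hsp90b1, Calr, Canx, Fos and Mki67). Members and lists were chosen with earlier results of these data known. Shared 50-base words were counted in GENCODE M21 transcripts. The values of 1 list member are not reported here. Of 644 list symbols, 3 were not matched. The fit was tested on simulated data. Alternatives included other scalings and filters, marker covariates, a replicate block and leaving out libraries.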

Additional observations from a re-analysis of the deposited data

Results flagged for a closer look

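In groups of 4, a library was picked out where its gap to the next took a larger share of the group's range than Dixon's 95% critical value. This was met 22 times in 192 groups looked at. Many of the genes were chosen by p, by fold change or after their values were seen. The rate of about 1 in 20 for unselected groups is therefore no measure for this set. Genes with 2 distinct levels made up many of these: among BPA libraries Cwc22 at 10.7 CPM in BPA 2, Rbm22 at 79.2 CPM, Itga2 at 8.79 CPM and Ccr6 at 3.22 CPM in BPA 3, and Got2-ps1 at 2.34 CPM in BPA 1, and among controls Efna3 at 107.8 CPM and Opn4 at 0.0236 CPM in control 4, Egflam at 1.06 CPM in control 1 and Got2-ps1 at 0.132 CPM in control 2.

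Pde9a at 17.2 CPM in BPA 4 lay apart from the other BPA libraries, near the lowest control. Pcdh15 at 38.7 CPM was highest in BPA 2. Among controls, Pdgfra at 86.6 CPM and Bmp4 at 67.9 CPM were lowest in control 1, Prcp at 13.2 CPM and Mgat5 at 113.0 CPM were highest there, Gucy1b1 at 38.9 CPM was lowest in control 2, Pllp at 1312 CPM was highest in control 3, and in control 4 Pdia4 was highest at 87.0 CPM, while Mvd at 178.1 CPM and Hspa1b at 34.4 CPM were lowest. Summed microglial markers at 3204 CPM in BPA 1 and summed astrocyte markers at 5019 CPM in BPA 3 were apart from the other BPA libraries.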

How the results depend on the processing

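The number of genes called was 0, and it was 2 with no filter on low counts (Gm26862 and Clec2g), where 2039 autosomal genes had an unadjusted p under 0.05, and 1 with the 8 female libraries alone (H13, -0.70). Without 1 female library it was 0 throughout, with 517 to 829 genes at an unadjusted p under 0.05. The SD of the fold changes ran from 0.20 (without male BPA 2) to 0.25 without 1 library and was 0.24 without BPA 1 and BPA 2, both left out after seeing the data, as were limma-trend and the fit without male BPA 2. No clear pairing by replicate number was seen: correlations of same-numbered deviations ran from -0.015 to 0.191, and those of other combinations from -0.232 to 0.165. A shared litter or batch cannot be told from these values. With a replicate block there were 687 genes at an unadjusted p under 0.05 and 0 called. Of 85 genes described in the text, 9 changed sign under some alternative. Of all 151 genes named by rule or chosen later, 22 changed sign on leaving out 1 female library. Without 1 library Efna3 ran from -3.17 to 0.041, Mbp from -0.093 to 0.028, Mog from -0.035 to 0.053, Esr1 from -0.42 to 0.14 and Canx from -0.053 to 0.010. Esr1 was 0.038 with precursor markers as a covariate. Without both BPA 1 and BPA 2, Mbp was 0.043, Pdgfra -0.060, Esr1 0.41, Calr -0.051, Plk1 -0.15 and Mki67 -0.19. The cause was not tested. The planned fits with edgeR and DESeq2 were not run. Depth limits genes under 1 CPM most.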

Other observations

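Large differences between single libraries were also seen in genes that the report does not name, and they were picked out here after their values were seen. Gm13340 on chromosome 2 was at 800.8 CPM in control 4 and 586.8, 639.6 and 653.4 CPM in BPA 1, BPA 2 and BPA 4, against 1.24 to 2.42 CPM in the other 4 libraries. Its log2 fold change of 4.45 ± 3.75 (SE) was the largest in size among genes of at least 1 CPM. Gm13339 on the same chromosome and Gm4076 on chromosome 13 were high in the same 4 libraries: Gm13339 was at 11.6 CPM in control 4 and 9.95 to 10.7 CPM in these BPA libraries, and Gm4076 at 45.6 CPM and 25.7 to 35.04 CPM, with at most 0.0527 and 0.343 CPM in the other 4.

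Grm4, a glutamate receptor gene on chromosome 17 like Pde9a, was at 28.2, 38.8, 3.04 and 48.6 CPM in controls and 3.64, 6.84, 2.95 and 28.2 CPM with BPA (-1.75 ± 1.09). As with Pde9a, BPA 4 was the highest of the BPA libraries and the other 3 were low, but control 3 was low as well. Both genes had an adjusted p over the threshold in limma-voom.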
